A study of Mus musculus with 6 samples.

Results

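The vesicle release and SNARE genes were taken as every gene whose symbol belongs to the synaptotagmins (Syt), synapsins (Syn1 to Syn3), SNAP proteins (Snap), syntaxins (Stx), VAMPs (Vamp), Rab3 GTPases, complexins (Cplx), SV2 proteins or synaptophysin (Syp), which gave 60 of 54309 genes. They were measured by RNA-seq of neuron-enriched cells from the L4-6 dorsal root ganglia (DRG, which hold the cell bodies of sensory neurons) of 8 to 10 week old male C57bl/6 mice. Both sciatic nerves had received an adeno-associated virus with GFP (AAV-GFP, 3 libraries) or with leptin and GFP (AAV-Leptin-GFP, 3 libraries) 4 weeks before a dorsal column axotomy, a cut of the central branch of the sensory axons, and tissue was taken 24 hours after it. All 6 libraries therefore carry a viral vector and a spinal injury, and none comes from an uninjured animal. The labels give no promoter for the vectors and do not say whether a library is 1 animal or a pool, so the p-values rest on library-to-library spread alone, which may be technical.

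Neurons release transmitter and peptides when a vesicle fuses with the plasma membrane. A VAMP on the vesicle pairs with a syntaxin and a SNAP-25-type protein on the target membrane into a tight bundle, the SNARE complex, while complexin clamps the bundle and a synaptotagmin senses calcium. Rab3, synapsin, SV2 and synaptophysin are vesicle proteins that govern tethering and supply. In sensory neurons this machinery releases glutamate and neuropeptides at the central terminals in the spinal cord and serves membrane addition in growing axons.

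A few of the sequences behind the results are shown first, because the genes with the largest difference and the highest level each make alternative coding exons. Stx3 (ENSMUSG00000041488, chromosome 19, 11775118 to 11819403 on GRCm38, minus strand) has coding transcripts that take either of 2 copies of exon 9, in GENCODE M21. Stx3-202 uses chr19:11783026-11783136 and Stx3-203 uses chr19:11782800-11782910. Both are 111 bases long and wholly coding, and they are identical at 68 positions. Capitals mark the 43 bases that differ, written 5′ to 3′ on the coding strand.
Stx3-202 exon 9: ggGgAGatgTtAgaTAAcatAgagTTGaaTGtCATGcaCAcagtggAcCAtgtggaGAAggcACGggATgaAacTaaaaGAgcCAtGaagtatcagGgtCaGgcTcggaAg
Stx3-203 exon 9: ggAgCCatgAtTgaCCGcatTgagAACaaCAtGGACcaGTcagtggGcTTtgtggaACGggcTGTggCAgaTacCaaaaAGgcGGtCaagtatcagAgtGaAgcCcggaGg

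Snap25 (ENSMUSG00000027273, chromosome 2, 136713453 to 136782428, plus strand) likewise has a pair of alternative copies of exon 5, known as the source of its a and b protein isoforms. Snap25-201 uses chr2:136770057-136770174 and Snap25-202 uses chr2:136769743-136769860. Both are 118 bases long and wholly coding, and capitals mark the 31 bases that differ.
Snap25-201 exon 5: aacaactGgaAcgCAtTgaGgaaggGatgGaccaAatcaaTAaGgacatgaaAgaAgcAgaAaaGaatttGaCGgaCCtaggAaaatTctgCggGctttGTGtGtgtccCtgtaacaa
Snap25-202 exon 5: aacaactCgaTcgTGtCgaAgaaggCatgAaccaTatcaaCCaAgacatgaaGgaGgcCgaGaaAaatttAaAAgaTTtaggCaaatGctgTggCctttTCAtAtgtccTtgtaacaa

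Values are TPM, a length-corrected share of each library's transcripts, summed over the transcripts of a gene, so levels of different genes can be set side by side. Of the 60 members, 54 had a mean of at least 1 TPM over the 6 libraries and were tested. The other 6 were Cplx3 and Stx19, listed at 0 in every library, and Cplx4, Syt8, Syt10 and Vamp9, at 0 to 0.825 TPM. Read depth is unknown, since TPM keeps no counts. Transcripts above 0 numbered 60572, 55476 and 55954 in AAV-GFP replicates 1 to 3. In the AAV-Leptin-GFP libraries they numbered 64423, 64087 and 61474, with no overlap. Why more transcripts were above 0 there, and what it does to genes of low level, was not tested. Together the members held 10024.1, 10025.3 and 10227.1 TPM in AAV-GFP replicates 1 to 3, and 9778.0, 10058.5 and 9790.9 TPM in the AAV-Leptin-GFP libraries. These totals overlapped between the groups. A share of 1 library's total cannot tell fewer cells of a type from less RNA per cell.

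**Figure D1:**
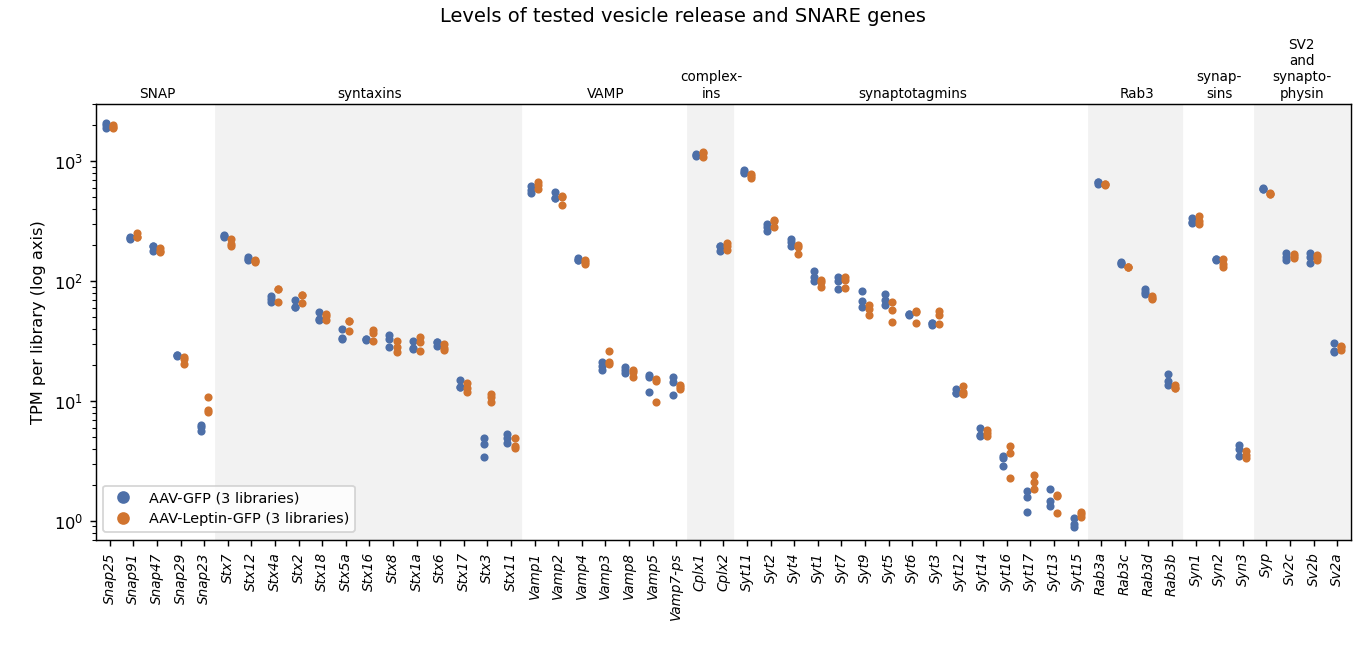
TPM of the tested members described here in each library (points, log axis), grouped by family and ordered by mean level, with AAV-GFP in blue and AAV-Leptin-GFP in orange. Levels run from about 1 TPM for Syt15 to 2081.4 TPM for Snap25, and the groups lie close together for nearly all members, with Stx3 and Snap23 as the visible exceptions.

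The members spanned more than 3 orders of magnitude, and a small set of neuronal release genes held most of the signal. Snap25, the plasma membrane SNARE that botulinum toxin A cuts, led with 1902.0, 1999.0 and 2081.4 TPM in the AAV-GFP libraries and 1876.3, 1920.2 and 1989.1 TPM in the AAV-Leptin-GFP libraries. Cplx1, the complexin of fast synapses, followed at 1091.7 to 1194.3 TPM, and Snap25 exceeded it in 6 of 6 libraries. Next came Syt11 (727 to 837 TPM) and Rab3a (629 to 675 TPM), whose ranges did not meet. Vamp1 (547 to 666 TPM), Syp (532 to 594 TPM) and Vamp2 (431 to 554 TPM) had overlapping ranges. The first 5 genes held 51.5% of the members' TPM and the first 22 held 90.4%.

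Within families the order of paralogs was the same in every library for most pairs. Syt2, a fast calcium sensor used in the hindbrain, spinal cord and neuromuscular junction, exceeded its forebrain counterpart Syt1 in 6 of 6 libraries, by 2.18 to 3.52 times. The size of that ratio rests in part on Syt2-203, a transcript of 383 bases. It held 41.8% ± 1.24 of Syt2's TPM in the AAV-GFP libraries and 43.8% ± 0.802 in the AAV-Leptin-GFP libraries (SD, n = 3). Syt2-201 alone was at 149 to 175 TPM, and Syt1-201 at 70.9 to 99.5 TPM. Cplx1 exceeded Cplx2 by 5.51 to 6.6 times. Vamp1 and Vamp2, the vesicle SNAREs cut by tetanus toxin, were closer, with Vamp1 higher in 5 of 6 libraries at a ratio of 0.989 to 1.55. Sv2c and Sv2b were nearly level (ratio 0.975 to 1.06) and stood above Sv2a, with Sv2b 4.65 to 6.73 times as high. Syn1, the main synapsin, exceeded Syn2 by 2.02 to 2.28 times, and Syn3 was at 3.32 to 4.27 TPM. Syt1 and Syt7 could not be ordered (ratio 0.958 to 1.16). These orders describe the 6 libraries and were not tested.

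The comparison of AAV-Leptin-GFP with AAV-GFP asks what leptin delivery did to the release genes a day after injury. Stx3 was the only member past the threshold, a Benjamini-Hochberg adjusted p under 0.05 over all 15108 tested genes (limma on log2(TPM + 1), AAV-Leptin-GFP minus AAV-GFP). That is 1 of 54 tested members higher (1.85%), where 1.54% of all tested genes were higher, so the share was near the background (1.61% counting both directions). No member was called lower in limma, against 0.0662% of all tested genes. At an unadjusted p under 0.05, 3 members were higher (5.56%, background 11.3%) and 6 lower (11.1%, background 8.19%). The median log2 fold change was -0.035 over the 54 members and -0.00016 over all tested genes, and 48 members lay within 0.2 of 0 (88.9%, background 73.7%). Values were above 0 for 25 members and below 0 for 29, where the background was 49.9% above and 50.1% below.

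Stx3 encodes syntaxin 3, a target-membrane SNARE known from apical delivery in epithelia, granule release in blood cells and the ribbon synapses of the retina. It stood at 4.93, 4.35 and 3.42 TPM in AAV-GFP replicates 1, 2 and 3 and at 11.5, 10.7 and 9.72 TPM in the AAV-Leptin-GFP libraries. Every AAV-Leptin-GFP library was above every AAV-GFP library, with a wide gap between the groups. The means were 4.23 ± 0.761 and 10.7 ± 0.897 TPM (SD, n = 3), a ratio of 2.52. The log2 fold change was 1.16 (SE 0.13, 95% interval 0.85 to 1.47, limma adjusted p = 0.0186). Its size was 1.05 to 1.26 when any library was left out, but the call was kept only without AAV-GFP replicate 1 (adjusted p from 0.0108 to 0.137), and it was lost with no filter on low values (adjusted p = 0.07).

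**Figure D2:**
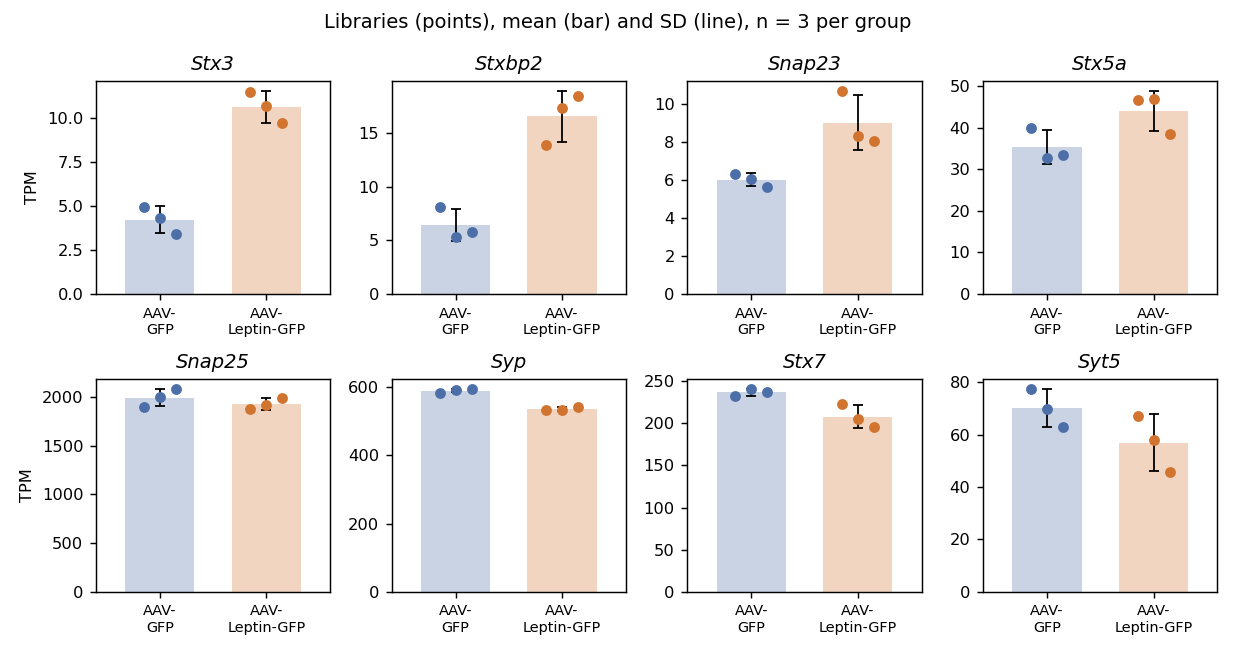
TPM of 8 genes in each library (points), with the group mean (bar) and SD (line), n = 3 per group, for AAV-GFP (blue) and AAV-Leptin-GFP (orange). Stx3 and its binding partner Stxbp2 rose with no overlap, Snap23 was separated but below the threshold, Stx5a and Syt5 overlapped, and Snap25, Syp and Stx7 differed by small fractions of high levels.

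The higher Stx3 level was spread over its transcripts rather than carried by 1 of them. Stx3-202 was at 1.48, 0.684 and 1.19 TPM in the AAV-GFP libraries and at 3.46, 2.81 and 2.64 TPM with leptin. Stx3-203, which carries the other copy of exon 9 shown above, was at 1.34, 0.679 and 1.08 TPM and at 3.08, 2.84 and 2.67 TPM. Their shares of the gene's TPM were thus close in both groups: 26.9% ± 9.96 and 24.8% ± 8.26 in the AAV-GFP libraries, then 27.8% ± 2.03 and 26.9% ± 0.554 in the AAV-Leptin-GFP libraries (SD, n = 3). Stx3-201, a transcript of the nonsense-mediated decay class, was at 1.34, 1.43 and 0.763 TPM and at 3.05, 2.6 and 2.56 TPM. Stx3-205, which retains an intron, was at 0.772, 0 and 0.384 TPM and at 1.93, 2.5 and 1.85 TPM. None of these 4 transcripts overlapped between the groups. Stx3-207, a processed transcript, was at 1.56 TPM in AAV-GFP replicate 2 and listed at 0 in the other libraries. Counting protein-coding transcripts only, Stx3 was at 2.15 ± 0.735 and 5.83 ± 0.633 TPM, a log2 fold change of 1.14 (limma adjusted p = 0.0449). With only its most abundant transcript, Stx3-202, the log2 fold change was 0.92 and missed the threshold (adjusted p = 0.133). The transcripts share most of their exons, so the division of reads among them is an estimate.

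**Figure D3:**
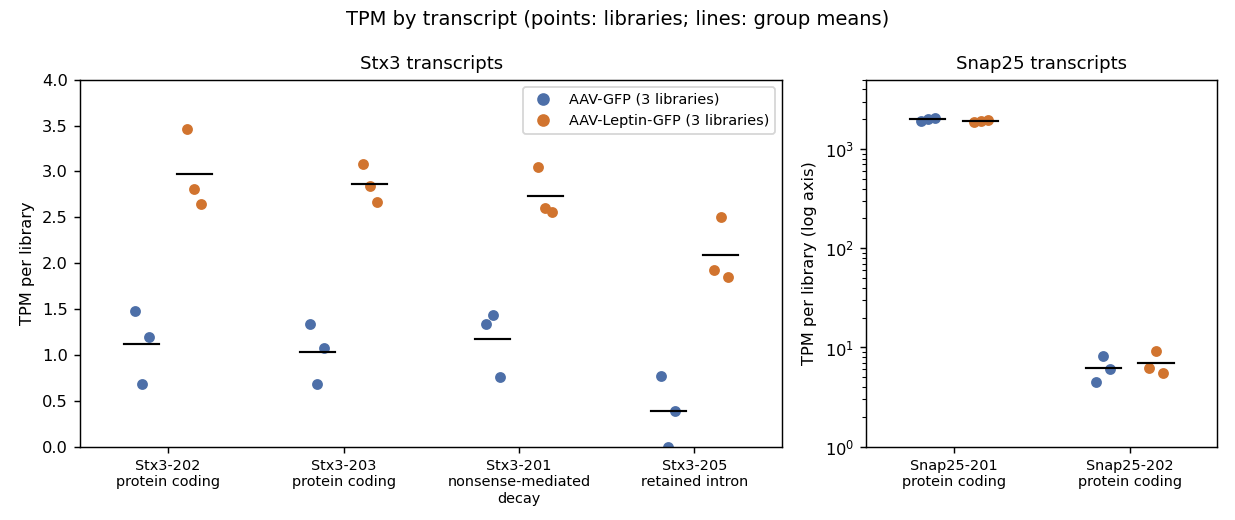
TPM of single transcripts in each library (points) with group means (lines), Stx3 on a linear axis and Snap25 on a log axis, AAV-GFP in blue and AAV-Leptin-GFP in orange. All 4 Stx3 transcripts were higher in every AAV-Leptin-GFP library, while both Snap25 transcripts overlapped between the groups.

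The other target-membrane syntaxins, which serve the cell surface, did not pass the test. Stx1a, a syntaxin of the presynaptic membrane, was at 31.8, 27.3 and 27.8 TPM with AAV-GFP and 31.1, 34 and 26.1 TPM with AAV-Leptin-GFP (0.06, 95% interval -0.19 to 0.31). Stx2 and Stx4a, the broadly used plasma membrane syntaxins, stood at 0.18 and 0.16. The groups overlapped for Stx1a, Stx2 and Stx4a. Stx11, used in secretion by immune cells, was at 4.08 to 5.29 TPM with a log2 fold change of -0.13.

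Syntaxins of the internal membranes went either way by small amounts. Stx7 of late endosomes, the most abundant syntaxin, was at 233, 241 and 237 TPM with AAV-GFP and 223, 205 and 196 TPM with AAV-Leptin-GFP. The groups did not overlap, and the log2 fold change was -0.19 (SE 0.05, limma adjusted p = 0.119). Its neighbour in that pathway Stx8 stood at -0.17 with overlapping groups, and Stx12 of recycling endosomes at -0.06 with groups that did not overlap (145 to 158 TPM). Stx5a, the Golgi syntaxin, was at 40, 32.6 and 33.4 TPM and at 46.6, 46.9 and 38.5 TPM (0.31, SE 0.11, adjusted p = 0.174). Its groups overlapped through AAV-GFP replicate 1 and AAV-Leptin-GFP replicate 3. Stx16, Stx6, Stx17 and Stx18, of the trans-Golgi network, autophagosomes and endoplasmic reticulum, lay between -0.10 and 0.11.

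**Figure D4:**
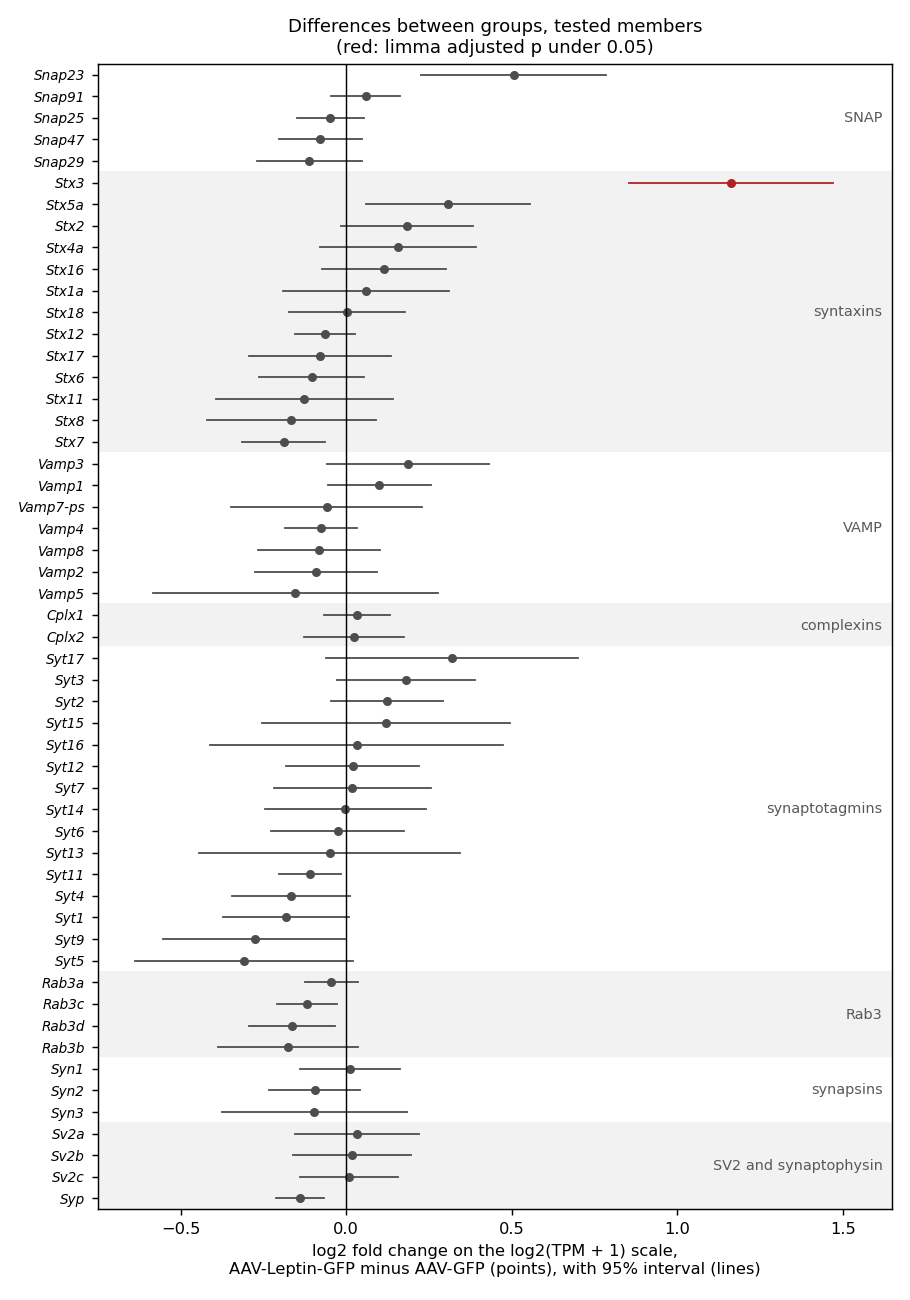
Log2 fold change of the tested members described here on the log2(TPM + 1) scale (points, AAV-Leptin-GFP minus AAV-GFP) with its 95% interval (lines), by family; red marks a limma adjusted p under 0.05. Stx3 at 1.16 is the only red point, Snap23 at 0.51 and Stx5a at 0.31 follow among the SNAREs, and most intervals cross 0.

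Among the SNAP family, the 2 plasma membrane paralogs lay far apart in level and difference. Snap23, the widely expressed counterpart of Snap25 outside neurons, was at 6.34, 6.08 and 5.65 TPM with AAV-GFP and 10.7, 8.35 and 8.08 TPM with AAV-Leptin-GFP. The groups did not overlap, yet the log2 fold change of 0.51 (SE 0.12) did not pass (limma adjusted p = 0.0841). With protein-coding transcripts only it was 0.31 (adjusted p = 0.222). Snap25 had a log2 fold change of -0.05 with a 95% interval of -0.15 to 0.05, and quantile normalization turned it to 0.043. The exon 5 choice of Snap25 was also close in the groups: Snap25-201 held 99.7% ± 0.0846 of the gene's TPM in the AAV-GFP libraries and 99.6% ± 0.113 in the AAV-Leptin-GFP libraries (SD, n = 3). Snap25-202 was at 4.51, 8.17 and 6.06 TPM and at 6.18, 9.11 and 5.49 TPM, with overlapping groups. Snap29 and Snap47, which act in trafficking inside the cell, stood at -0.11 and -0.08. Snap91 fits the naming pattern but encodes the clathrin adaptor AP180 and is no SNARE; it was at 223 to 250 TPM (0.06, adjusted p = 0.52).

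No vesicle SNARE passed. Vamp1 was at 547, 580 and 627 TPM with AAV-GFP and 582, 633 and 666 TPM with AAV-Leptin-GFP (0.10, 95% interval -0.06 to 0.26). Vamp2 was at 554, 492 and 496 TPM and at 507, 513 and 431 TPM (-0.09, 95% interval -0.28 to 0.09). Both pairs of groups overlapped. Vamp3, the VAMP of recycling endosomes, was at 18.1 to 25.9 TPM (0.19, limma adjusted p = 0.385). Vamp4, Vamp5 and Vamp8 stood between -0.15 and -0.08. Vamp7-ps is a pseudogene copy at 11.2 to 15.8 TPM whose reads may belong to its parent gene, which was not analysed here.

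No tested complexin or synapsin passed, and their log2 fold changes lay between -0.10 and 0.03. Cplx1 was at 1119.5, 1102.3 and 1152.4 TPM with AAV-GFP and 1091.7, 1169.0 and 1194.3 TPM with AAV-Leptin-GFP (0.03, 95% interval -0.07 to 0.13). Cplx2 stood at 0.02 (95% interval -0.13 to 0.18). Syn1, which ties vesicles to the reserve pool, was at 335, 311 and 307 TPM and at 319, 347 and 297 TPM (0.01, 95% interval -0.14 to 0.16), with a sign that changed under 4 alternatives. Syn2 stood at -0.10 (95% interval -0.23 to 0.04) and Syn3 at -0.10 (95% interval -0.38 to 0.18). The groups overlapped for all of these genes.

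Of 15 tested synaptotagmins none passed, 7 were above 0 and 8 below, and the median log2 fold change was -0.0023. Syt11, a calcium-independent member and the most abundant, was at 801, 837 and 814 TPM with AAV-GFP and 787, 759 and 727 TPM with AAV-Leptin-GFP. The groups did not overlap, and the difference was -0.11 (SE 0.04, limma adjusted p = 0.197; 0.0018 under quantile normalization). The largest negative values were those of Syt5 and Syt9, sensors found on dense-core vesicles as well. Syt5 was at 77.5, 70 and 63 TPM and at 67.3, 57.9 and 45.7 TPM (-0.31, SE 0.14, adjusted p = 0.284), and Syt9 was at 82, 68.7 and 60.6 TPM and at 62.7, 58.7 and 51.7 TPM (-0.28, SE 0.12, adjusted p = 0.257). Both genes overlapped between groups. Without AAV-Leptin-GFP replicate 3 Syt5 was at -0.16, and without AAV-GFP replicate 1 Syt9 was at -0.16 and Syt1 at -0.11. Syt1 (-0.18, adjusted p = 0.274) and Syt4 (-0.17, adjusted p = 0.285) also overlapped. Syt2 was at 263, 280 and 302 TPM and at 280, 325 and 315 TPM (0.12, 95% interval -0.05 to 0.29). Syt7, the slow high-affinity sensor, stood at 0.02. Syt17 had the largest positive value (0.32, SE 0.16, adjusted p = 0.334) at only 1.19 to 2.43 TPM.

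Vesicle membrane proteins and Rab3 GTPases included the member with the smallest adjusted p after Stx3. Synaptophysin, Syp, the classical marker of synaptic vesicles, was at 584, 591 and 594 TPM with AAV-GFP and 532, 532 and 542 TPM with AAV-Leptin-GFP. The groups did not overlap and the libraries of each group lay within a narrow range, but the log2 fold change of -0.14 (SE 0.03) did not pass (limma adjusted p = 0.0748). It was -0.06 under quantile normalization (adjusted p = 0.35). The retained-intron transcript Syp-204 was at 14 TPM in AAV-GFP replicate 3 and listed at 0 in the other libraries. Sv2a, Sv2b and Sv2c, transporter-like vesicle glycoproteins, stood between 0.009 and 0.03 with overlapping groups. The 4 Rab3 genes were all below 0, with none called: Rab3a at -0.04, Rab3c at -0.12, Rab3d at -0.16 and Rab3b at -0.18. Rab3c was at 138, 142 and 144 TPM and at 130, 132 and 130 TPM, with no overlap (SE 0.04, adjusted p = 0.162). Rab3a turned to 0.03 under quantile normalization, and the other 3 remained below 0 there.

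Across the 54 tested members, the groups did not overlap upward for 4 (7.41%, background 13.3%) and downward for 7 (13%, background 11.9%). The upward ones were Stx3, Snap23, Syt15 and Syt17, and the downward ones Stx7, Stx12, Snap29, Syp, Rab3c, Rab3d and Syt11. Genes encoded in mitochondria held 5.88% ± 0.234 of the total in the AAV-GFP libraries and 8.08% ± 0.949 in the AAV-Leptin-GFP libraries (SD, n = 3), which lowers the share left for other genes. Removing those genes rescales all others within a library alike. The median then moved to -0.0009 for the members and to 0.032 for all tested genes. The members' median thus stayed below that of all genes in this fit. Under quantile normalization the order was the reverse, with -0.0224 for the members and -0.0382 for all tested genes.

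The partner genes of vesicle release were taken from 7 lists with 135 genes, of which 123 were tested. At an adjusted limma p under 0.05, Stxbp2 alone was called higher and none lower (0.813% and 0%, background 1.54% and 0.0662%). Log2 fold changes were above 0 for 52 of the 123 and below 0 for 71, where the background was 49.9% and 50.1%. The groups did not overlap upward for 12 and downward for 21, with a background of 13.3% and 11.9%. At an unadjusted limma p under 0.05, 8 of the 123 were higher and 16 lower, where the background was 11.3% and 8.19%. Stxbp2 (ENSMUSG00000004626, chromosome 8, 3630955 to 3643644 on GRCm38) encodes Munc18-2, which binds syntaxin 3 and drives granule release in blood cells. It was at 8.12, 5.33 and 5.74 TPM with AAV-GFP and 13.9, 17.3 and 18.4 TPM with AAV-Leptin-GFP, with no overlap. The log2 fold change was 1.25 (SE 0.16, limma adjusted p = 0.0238), and the call was kept only without AAV-GFP replicate 1 when single libraries were left out (adjusted p from 0.0079 to 0.162). Much of this lay on retained-intron transcripts, at 2.27 ± 0.921 and 9.4 ± 3.08 TPM, while protein-coding transcripts were at 2.95 ± 0.673 and 5.41 ± 0.793 TPM (SD, n = 3). With coding transcripts only, Stxbp2 did not pass (0.71, adjusted p = 0.0964). In the same list Scfd2, of the same Sec1/Munc18 family, was at 22.3 ± 1.25 and 17.6 ± 0.657 TPM (-0.32, limma adjusted p = 0.0685) and passed under quantile normalization (-0.37, adjusted p = 0.0344).

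Nsf, the ATPase that takes SNARE complexes apart, was at 322 to 340 TPM and stood at 0.002 (95% interval -0.09 to 0.09).

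None of the other 6 partner lists held a called gene. Among active zone and priming genes the smallest p was that of Doc2g (0.783 ± 0.115 and 2.67 ± 0.778 TPM, 1.02, limma adjusted p = 0.0531), a gene related to the calcium-binding Doc2 proteins. It passed with a pseudocount of 0.1 (adjusted p = 0.0463) and with mitochondrially encoded genes removed (adjusted p = 0.0428). Among endocytosis genes it was that of Dnm2, the widely expressed dynamin (25.4 ± 4.85 and 39.6 ± 3.28 TPM, 0.63, adjusted p = 0.0657), which passed without AAV-GFP replicate 1 (adjusted p = 0.0185). Protein-coding transcripts of Dnm2 were at 23.2 ± 2.2 and 27.2 ± 0.563 TPM and retained-intron ones at 1.74 ± 2.16 and 10.9 ± 2.81 TPM. The 12 SNAREs outside the named families were all below 0, by 0.009 to 0.15. Under quantile normalization, where the median of all genes was -0.0382, 11 were below 0. Removing mitochondrially encoded genes raised the median of all genes to 0.032 and left 8 of the 12 below 0. Vti1b, an endosomal SNARE that pairs with Stx7 and Stx8, was the one with the smallest p (175 ± 3.12 and 159 ± 4.5 TPM, -0.15, adjusted p = 0.113). In the remaining lists the smallest p belonged to the dense-core vesicle protein Scg2 (-0.30, adjusted p = 0.119), Syngr3 (-0.20, adjusted p = 0.147) and Rab27b (-0.29, adjusted p = 0.172).

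Retained-intron transcripts took a larger share of TPM with AAV-Leptin-GFP over all genes, and also among the members. They took 1.47%, 1.31% and 1.45% of the members' TPM in the AAV-GFP libraries and 1.83%, 1.72% and 1.59% in the AAV-Leptin-GFP libraries, so the groups did not overlap. Over all genes the corresponding shares were 2.29% ± 0.2 and 3.53% ± 0.26 of all TPM (SD, n = 3). Of 30 members with such transcripts above 0, the groups did not overlap upward in 14 and downward in 1, where the background was 39.8% and 0.843% of 8189 genes. Among the 11 members with a mean of at least 1 TPM on them the counts were 5 and 1, with a background of 56.9% and 1.19%. The members' upward shares were therefore not far from those of other genes, and the downward count rests on 1 member.

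**Figure D5:**
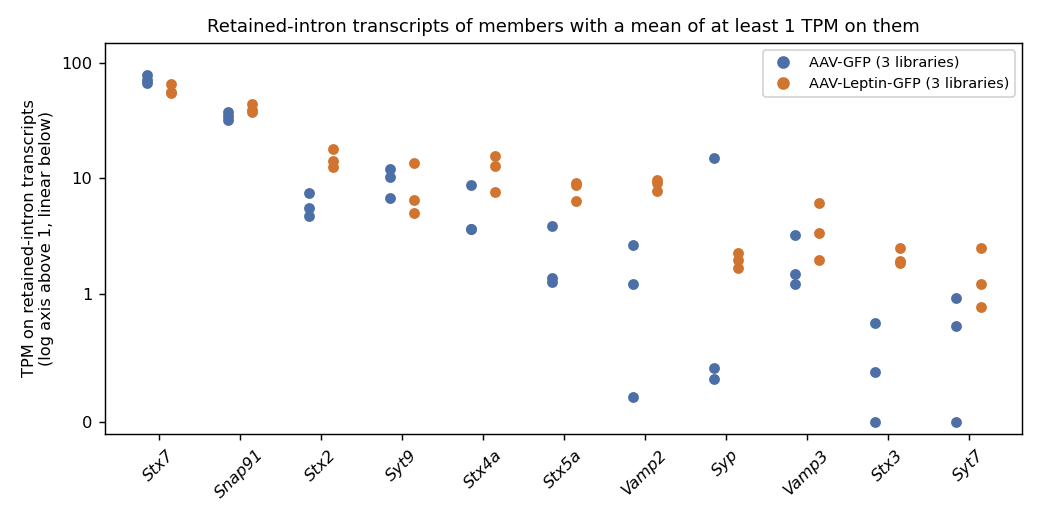
TPM on retained-intron transcripts in each library (points) for the 11 members with a mean of at least 1 TPM on them, AAV-GFP in blue and AAV-Leptin-GFP in orange, on an axis that is logarithmic above 1 and linear below. Snap91, Stx2, Stx5a, Vamp2 and Stx3 were higher in every AAV-Leptin-GFP library, and Stx7 was lower.

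Stx2 shows how this bears on a gene's total. Its retained-intron transcripts were at 7.42, 4.71 and 5.54 TPM with AAV-GFP and 14.2, 18.1 and 12.4 TPM with AAV-Leptin-GFP, while its protein-coding transcripts were at 56.9 ± 3.79 and 56.6 ± 6.26 TPM (SD, n = 3). For Vamp2 the retained-intron value went from 1.35 ± 1.24 to 8.79 ± 0.97 TPM beside 511 ± 32.7 and 470 ± 44.6 TPM of coding transcripts. Stx5a had 2.16 ± 1.48 and 8.05 ± 1.51 TPM on retained-intron and 22.7 ± 5.18 and 27.9 ± 2.36 TPM on coding transcripts. Stx7 was the exception, with 66.7, 71.1 and 77.9 TPM against 65.4, 55.8 and 55.1 TPM. These transcript values were not tested.

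In the RefSeq promoter table (GRCm38.p6, 250 bases before to 50 after a start), 47 of the 60 members had a window. The STAT motif TTCNNNGAA lay in the windows of Stx17, Sv2b, Syn2 and Vamp8, and in 8.3% of all 32851 windows. The AP-1 motif TGANTCA lay in those of Syt2, Syt6, Syt8 and Vamp9 (7.81% of all windows), and the CRE motif TGACGTCA in that of Syn1 (1.79%). Both strands were searched, and the motifs were counted separately. A member was listed if any of its windows held the motif, while the percentages count single windows, so they are unlike measures. The Stx3 window held none of the 3 motifs in these letters.

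Other cells were present in the preparation, and their markers were read beside the result for Stx3. All 14 markers of sensory neurons were tested, and none passed. Their sum was 26169.1 to 27709.5 TPM with AAV-GFP and 25655.6 to 26264.6 TPM with AAV-Leptin-GFP, with overlap. Snap25 itself is in that list. Of the 14, 3 were above 0 and 11 below. The groups did not overlap upward for 1 and downward for 5 (background 13.3% and 11.9%). Under quantile normalization 7 were above 0 and 7 below. Satellite glia markers summed to 8607.4 to 9837.0 and 7736.3 to 8458.7 TPM, lower with AAV-Leptin-GFP and without overlap. None of the 10 was called, and 2 were above 0. Macrophage markers summed to 75.7 to 99.2 and 83.9 to 91.4 TPM with none of 11 called and 3 above 0. Fibroblast markers summed to 60.9 to 75.4 and 59.4 to 87.6 TPM, with 4 of 6 above 0. Endothelial and mural markers summed to 64.1 to 95.7 and 58.7 to 78.4 TPM, with 3 of 7 tested above 0. These last 3 sums overlapped, and no fibroblast, endothelial or mural marker was called. Schwann cell markers summed to 979.0 to 1015.1 and 863 to 945 TPM, lower with AAV-Leptin-GFP and without overlap. Of the 10 only Egr2, also an immediate early gene, was called, and it was higher (1.29, limma adjusted p = 0.0155). Because Stx3, Stxbp2 and Snap23 serve granule release in blood cells, markers of these cells were added after the values were seen. Neutrophil markers summed to 177, 465 and 132 TPM with AAV-GFP and 288, 249 and 305 TPM with AAV-Leptin-GFP and overlapped. Of the 7 tested, 6 were above 0 (median log2 fold change 0.31) and none was called. Platelet markers summed to 16.1 to 19.4 and 11.9 to 15.4 TPM, lower with AAV-Leptin-GFP and without overlap, with the defining Treml1 at 0 in all libraries. Mast cell markers summed to 5.16 to 12.9 and 4.89 to 7.55 TPM, and lymphocyte markers to 1.67 to 2.05 and 1.26 to 3.73 TPM. Both of these overlapped. Erythroid markers summed to 256, 170 and 171 TPM and to 239, 374 and 1723.9 TPM, with AAV-Leptin-GFP replicate 3 far above the rest. All 5 were above 0 (median log2 fold change 1.44), 2 of them with groups that did not overlap, and none was called. The part of other cells in the Stx3 result was not tested.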

How the data were processed

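Per the labels' protocols, ganglia were dissociated with enzymes, neurons were enriched on an albumin gradient, and stranded mRNA libraries were made. The authors deposited TPM per Ensembl transcript for 6 libraries. The submitters' processing notes list Salmon 1.6.0, DESeq2 1.34.0, Trim Galore 0.6.6 and FastQC 0.11.9 without roles, and mm10 and GRCm38 as builds. No annotation release is stated in what was used here. Here, transcript TPM were summed by gene (54309 genes), and limma 3.58.1 (R 4.3.3) compared the groups on log2(TPM + 1) for the 15108 genes averaging 1 TPM or more (mean-variance trend, two-sided, no covariates, Benjamini-Hochberg). Fold changes on this scale understate those of low genes, and TPM is a share of a fixed total. Gene positions and transcript classes came from GENCODE M21 (GRCm38), matched by identifier without version (97.4% of 140789 transcripts; 316 of 319 member transcripts). The test was checked on simulated data with independent noise for each gene and library. These held no library-wide differences, so the check does not cover such differences. The members and lists were chosen with earlier results of these data known, so no list was tested as a set. Named are called members, the highest and smallest-p member of each family, the 4 largest differences each way, members at or above 200 TPM, and, per partner list, called genes or the smallest p; other members are given by values in their families, and Nsf, Scfd2, Egr2 and the blood cell markers were chosen after their values were seen. Alternatives changed the pseudocount, filter, scaling, transcript choice, trend, replicate block and libraries. Counts cover every member, but some genes are not reported by name here.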

Additional observations from a re-analysis of the deposited data

How the results depend on the processing

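Of the members, 1 (Stx3) was called higher in the main analysis; the count was 0 with no filter on low values and with only the most abundant transcript of each gene, and 0 to 1 when single libraries were left out, with the call kept only without AAV-GFP replicate 1. The count of members called lower was 0 under every alternative run. The members' median log2 fold change moved from -0.035 to -0.0009 with mitochondrially encoded genes removed, more than its spread between replicates of 0.029, while the median of all tested genes moved from -0.0002 to 0.0319 in the same fit; it was -0.045 to -0.027 when single libraries were left out. Partner genes called higher were 1 (Stxbp2) in the main analysis, 2 with a pseudocount of 0.1 or with mitochondrially encoded genes removed (Stxbp2 and Doc2g in both), and 0 with no filter, the most abundant transcript only, protein-coding transcripts only or limma without trend; they were 0 to 2 when single libraries were left out, with 2 (Stxbp2 and Dnm2) only without AAV-GFP replicate 1. Under quantile normalization 1 partner gene was called lower, Scfd2 (-0.37). Among the 21 members and 7 partner genes named by the rule above, signs changed for Rab3a (0.032), Snap25 (0.043) and Syt11 (0.0018) under quantile normalization. With the most abundant transcript only, they changed for Syn1 (-0.0008) and Syn2 (0.117). Syn1 also changed sign without AAV-GFP replicate 2 (-0.0021), AAV-GFP replicate 3 (-0.0125) and AAV-Leptin-GFP replicate 2 (-0.0456). When single libraries were left out Syn1 ranged from -0.0456 to 0.0662. Signs of other members changed too. Of 15 tested synaptotagmins, 7 were above 0 in the main analysis, 5 under quantile normalization and 9 with mitochondrially encoded genes removed. Over all tested genes the counts above 0 moved the same way. They were 7546 of 15108, 6032 of 15108 and 8881 of 15253 in these fits. The cause of these changes was not tested. The replicate numbers share only a label: deviations of same-numbered libraries correlated at 0.034, -0.070 and -0.024, and with the replicate block 1 member (Stx3, adjusted p = 0.0456) and 0 partner genes were called higher, and 0 of either lower. Over all genes, the calls were 233 higher and 10 lower in the main analysis, 74 and 0 with the replicate block, 4 and 0 with no filter, 35 and 0 without trend, and 53 and 4 with protein-coding transcripts only. Without AAV-GFP replicate 1 they were 409 and 11, and without each of the other libraries 3 to 18 higher and 0 to 1 lower, so calls were few over all genes in the leave-one-out fits where Stx3 and Stxbp2 were not called. Read depth is unknown, which limits what can be said of transcripts near 1 TPM.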
